A study of Mus musculus with 6 samples.

Results

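The genes described here encode the nuclear pore proteins, the transport receptors that carry cargo through the pore, and the Ran cycle proteins that power them. They were taken from the deposited table by gene name alone (Nup, Kpna, Kpnb, Ipo, Xpo, Tnpo and Ranbp names, and Ran, Rangap1, Rcc1, Ndc1, Pom121, Seh1l, Sec13 and Tpr), which gave 58 of its 14003 genes. No expression value decided which gene entered. The family was proposed with results of the same comparison known, so counts over it are descriptions and nothing is inferred from them. By role, the 58 genes were 25 pore proteins, 25 transport receptors, 5 Ran cycle genes, 2 Ran-binding genes outside transport (Ranbp9 and Ranbp10) and the pore paralogue Nup210l. RNA was sequenced from MC3T3-E1, a preosteoblast cell line from mouse calvaria, labelled wild type. Libraries came from 3 samples given 200 µM sulfasalazine, an anti-inflammatory drug, for 24 h and 3 control samples left untreated. The labels name no vehicle, give the same batch for all 6 libraries and do not say whether replicates were separate cultures, so each p-value reflects sample-to-sample spread that may be only technical.

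The nuclear pore is a ring-shaped channel built from many copies of a set of nucleoporins. Outer and inner rings form its scaffold, membrane proteins anchor it in the nuclear envelope, and proteins rich in phenylalanine-glycine repeats fill the channel, the cytoplasmic filaments and the nuclear basket. Importins and exportins recognise signals on their cargo and pass this barrier, and the GTPase Ran, loaded with GTP in the nucleus by Rcc1 and discharged in the cytoplasm by Rangap1 with Ranbp1, sets the direction of travel.

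The 6 libraries held between 15980942 and 21579133 recovered reads on genes. The first principal component carried 88.6% of the variance and separated the groups, with sulfasalazine libraries at -57.7, -59.2 and -54.1 and control libraries at 65.3, 63.2 and 42.6. Control replicate 3, with the fewest reads, stood apart from the other 2 controls. Of 10 osteoblast markers 6 were in the table, and 3 of these (Sp7, Col1a1 and Bglap) averaged below 1 FPKM, while Runx2, Spp1 and Sparc were at 10 or more. Of 5 epithelial markers 4 were in the table, 3 keratins among them at 10 FPKM or more. Krt8 and Krt18 averaged 902 and 913 FPKM in sulfasalazine libraries and 287 and 708 in controls, while Col1a1 averaged 0.461 FPKM in sulfasalazine libraries and 0.28 in controls, and Sp7 was at 0 in all controls. These levels go against the preosteoblast label, which is kept here only as the submitters' name for the cells. Summed osteoblast marker FPKM was 889 to 1109.8 in sulfasalazine libraries and 1549 to 2142 in controls, most of it Spp1. The epithelial sum was 1884 to 2093 in sulfasalazine libraries and 1293 to 1452 in controls. The macrophage sum (2 of 4 markers in the table) was 16.3 to 27.7 in sulfasalazine libraries and 31.7 to 56.2 in controls. Nearly all of it was Cd68, as Csf1r averaged 0.0396 FPKM in sulfasalazine libraries and 0.0406 in controls. The endothelial sum (2 of 3 in the table) stayed below 1 FPKM in every library. The epithelial markers did not move together: Krt8 and Krt18 rose (log2 change 1.65 and 0.37), Krt19 fell (log2 change -1.21, limma adjusted p = 0.0013) and Cdh1 did not pass. The part of these markers in the results below was not tested.

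Values are FPKM (fragments scaled to gene length and to the fragments of the library), listed in the order of replicates 1, 2 and 3. Fold changes are log2 changes of FPKM + 1, sulfasalazine over control, from 1 limma fit over all 10338 genes that reached 1 FPKM in at least 3 libraries. A gene rose or fell where the Benjamini-Hochberg adjusted p of that fit was below 0.05. The members were well expressed: 49 averaged 10 FPKM or more in sulfasalazine libraries and 53 did in control libraries. In bulk RNA, fewer cells of a type and less RNA per cell cannot be told apart.

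Most pore and transport genes that changed were lower after sulfasalazine. Of the 55 members tested, 30 fell, 3 rose (Nup93, Ipo8 and Ipo13) and 22 did not pass. Over all genes tested, 29.3% fell and 37.2% rose, 66.5% in all. The median log2 change was -0.51 over the members tested and 0.08 over all genes tested. Sulfasalazine values lay wholly below control values for 29 members, against 31.1% of all genes tested, and wholly above for 5, against 40.3% of all genes tested. Groups that did not overlap in either direction made up 71.4% of all genes tested. The 3 members not tested were Nup210l, Ranbp17 and Kpna7, which averaged 0.309, 0.323 and 0.193 FPKM in sulfasalazine libraries and 0.181, 0.289 and 0.0152 FPKM in controls.

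**Figure D1:**
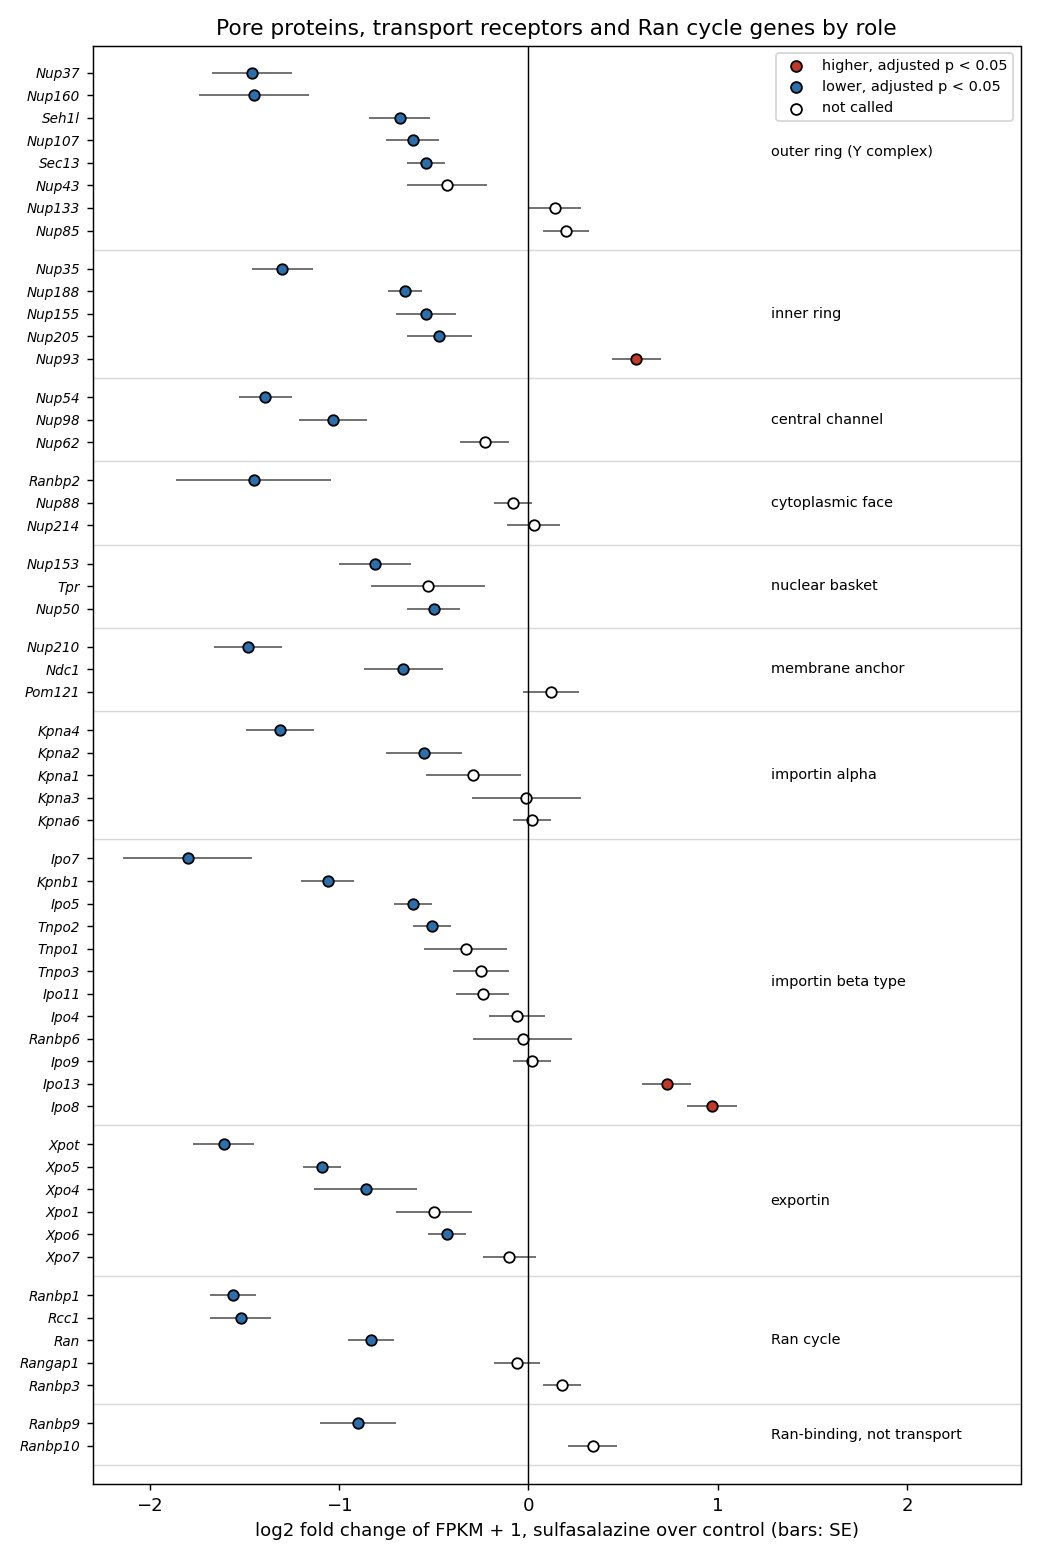
Log2 fold change of FPKM + 1, sulfasalazine over control, for the 55 tested members grouped by role (points: limma estimate; bars: standard error; 3 libraries per group; blue fell, red rose, open did not pass adjusted p below 0.05). Changes run from -1.80 for Ipo7 to 0.97 for Ipo8, and most roles hold genes that fell next to genes that did not pass.

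Among pore proteins, 16 of 25 fell (64.0%), 1 rose (4.0%) and 8 did not pass, against 29.3% lower and 37.2% higher over all genes tested, with a median log2 change of -0.54 and a range of -1.48 to 0.57. The outer ring, or Y complex, is the coat-like scaffold on both faces of the pore, and 5 of its 8 genes fell (62.5%, against 29.3% of all genes tested). Nup37, a small peripheral subunit, had 6.99, 5.96 and 9.36 FPKM in sulfasalazine libraries and 21.1, 27.1 and 18.3 in controls. Nup160, which lies at the hub of the Y, had 9.47, 8.2 and 11.5 FPKM in sulfasalazine libraries and 37.8, 34 and 17 in controls. The groups did not overlap for either gene, but control replicate 3 was less than 2 times the highest sulfasalazine library for both. The log2 changes were -1.46 ± 0.21 (SE, limma adjusted p = 0.00041) for Nup37 and -1.45 ± 0.29 (limma adjusted p = 0.0025) for Nup160. Seh1l, also a subunit of the nutrient-sensing GATOR2 complex, had 16.2, 15.5 and 21.4 FPKM in sulfasalazine libraries and 30.3, 31.3 and 24.7 in controls (log2 change -0.68, limma adjusted p = 0.0068). Nup107, the subunit for which the complex is often named, had 18.5, 16.1 and 21.5 FPKM in sulfasalazine libraries and 26.9, 30.9 and 29.4 in controls, again without overlap (log2 change -0.61, limma adjusted p = 0.0054). Sec13, shared with the COPII coat of secretory vesicles, fell by 0.54 on the log2 scale (limma adjusted p = 0.0020). Nup133 and Nup85 belong to the same complex and did not pass: Nup133 had 10.2, 9.76 and 11.4 FPKM in sulfasalazine libraries against 8.98, 10 and 9.16 in controls. Nup43 also did not pass, at a log2 change of -0.43 (limma adjusted p = 0.11), but it did with median-of-ratios scaling, with quantile normalization and without control replicate 1 (0.023 to 0.042).

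The inner ring surrounds the channel. Of its 5 genes, 4 fell (80.0%) and 1 rose (20.0%), against 29.3% lower and 37.2% higher over all genes tested. Nup35, which links the ring to the membrane, had 16.4, 17.1 and 22.2 FPKM in sulfasalazine libraries and 54, 46.3 and 41.1 in controls (log2 change -1.30 ± 0.16, limma adjusted p = 0.00019). Of its 50-base words 39.2% also occur in other genes, mainly Gm4353, so its reads could be split between them. Nup188, a large scaffold protein, had 80.5, 82.5 and 81.1 FPKM in sulfasalazine libraries and 121, 131 and 131 in controls, with the controls well clear of the treated libraries (log2 change -0.65 ± 0.09, limma adjusted p = 0.00043). Its exons overlap an opposite-strand gene over 12.4% of their bases, and the labels and notes do not say whether strand was used in counting. Nup93 (chr8:94214564-94317227, GRCm38), which tethers the Nup62 complex to the ring, was the only pore gene to rise in this fit, with 29.3, 28.5 and 30.6 FPKM in sulfasalazine libraries and 18.3, 18.3 and 22.1 in controls (log2 change 0.57 ± 0.13, limma adjusted p = 0.0044). Nup155 and Nup205 fell by 0.54 and 0.47 on the log2 scale, with limma adjusted p of 0.019 and 0.040. Nup155 lost its call when sulfasalazine replicate 1 or 2 or control replicate 1 or 2 was left out (adjusted p 0.051 to 0.072). Nup205 lost it in the same 4 cases (0.12 to 0.13), and its groups overlapped, the highest sulfasalazine library at 24.7 FPKM and the lowest control at 23.7.

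**Figure D2:**
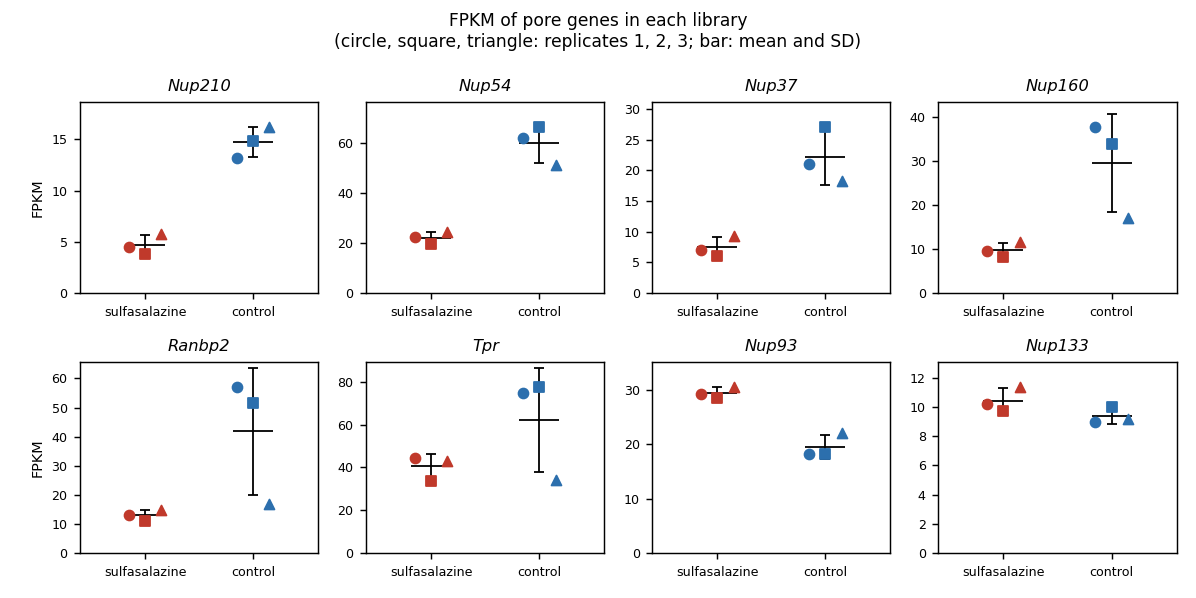
FPKM of 8 pore genes in each library, sulfasalazine on the left and control on the right of each panel (circle, square, triangle: replicates 1, 2, 3; bar: mean and SD, n = 3; each vertical axis starts at 0). Nup210, Nup54, Nup37, Nup160 and Ranbp2 are lower in all sulfasalazine libraries, Nup93 is higher, and control replicate 3 drops to 16.7 for Ranbp2 and 34.2 for Tpr.

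The channel and filament proteins, which carry the phenylalanine-glycine repeats that bind receptors, differed among themselves. Nup54 sits in the channel with Nup62. It had 22.2, 19.7 and 24.5 FPKM in sulfasalazine libraries and 61.8, 66.4 and 51.2 in controls, and every control was above 2 times the highest treated library (log2 change -1.39 ± 0.14, limma adjusted p = 7.1e-05). Nup54 shares 13.9% of its 50-base words with other genes. Nup62 itself had 43.9, 42.1 and 46.8 FPKM in sulfasalazine libraries and 48.2, 47.7 and 61.3 in controls, lower without overlap but not past the threshold (limma adjusted p = 0.15). It passed with median-of-ratios scaling (-0.35, adjusted p 0.041) and with voom (-0.36, adjusted p 0.031). Nup98, whose transcript also encodes the scaffold protein Nup96, had 30.4, 28.1 and 29.3 FPKM in sulfasalazine libraries and 76.2, 64.8 and 45.2 in controls (log2 change -1.03 ± 0.18, limma adjusted p = 0.0014). All treated libraries were lower, and the controls spread more than the treated libraries did.

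On the cytoplasmic face, Ranbp2 (also called Nup358), the filament protein that binds SUMO-modified Rangap1, had 13, 11.1 and 14.6 FPKM in sulfasalazine libraries and 57.1, 51.5 and 16.7 in controls. It changed by -1.45 ± 0.41 on the log2 scale (limma adjusted p = 0.014), the widest standard error among the 55 members tested. Control replicate 3 lay close to the treated libraries and far from the other controls. Without control replicate 1 or 2 the adjusted p was 0.052 or 0.061, and without control replicate 3 the log2 change was -2.0. Nup214 and Nup88, its neighbours on that face, did not pass. Nup214 had 91.7, 93.3 and 87 FPKM in sulfasalazine libraries and 107, 90.1 and 72.9 in controls.

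In the nuclear basket, Nup153, an anchor for import complexes, had 54.2, 50.9 and 57 FPKM in sulfasalazine libraries and 113, 112 and 68.6 in controls (log2 change -0.81 ± 0.19, limma adjusted p = 0.0059). Nup50, a mobile cofactor of importin alpha release, had 39.3, 40.1 and 39.4 FPKM in sulfasalazine libraries and 66.8, 58 and 46.6 in controls (log2 change -0.50, limma adjusted p = 0.013). Neither gene's groups overlapped. Tpr, the coiled-coil protein of the basket filaments, had 44.5, 33.6 and 43.2 FPKM in sulfasalazine libraries and 74.9, 77.7 and 34.2 in controls. The groups overlapped through control replicate 3, and Tpr did not pass (log2 change -0.53 ± 0.30, limma adjusted p = 0.15). With control replicate 3 left out, its log2 change was -0.91 and the adjusted p 0.00045.

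Of the membrane proteins, Nup210 (chr6:91013068-91116829, GRCm38) was among the pore genes with the largest falls, close to Nup37, Nup160 and Ranbp2. It had 4.49, 3.76 and 5.74 FPKM in sulfasalazine libraries and 13.2, 14.8 and 16.2 in controls, with all treated values far below the lowest control (log2 change -1.48 ± 0.18, limma adjusted p = 0.00017). Because 1 FPKM was added before taking logs, that log2 change understates the ratio of the means, which was 0.316. Ndc1, needed to insert new pores in the envelope, had 18.9, 17.8 and 30.3 FPKM in sulfasalazine libraries and 29.8, 37.2 and 38.6 in controls. The groups overlapped, and its call (log2 change -0.66, limma adjusted p = 0.023) was lost without sulfasalazine replicate 1 or 2 or control replicate 2 (0.076 to 0.086). Pom121, the other anchor, overlapped between groups at 24.2, 24.7 and 28.3 FPKM in sulfasalazine libraries and 26.6, 24.8 and 19.5 in controls, and it did not pass (limma adjusted p = 0.48).

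Of the 23 transport receptors tested, 10 fell (43.5%), 2 rose (8.7%) and 11 did not pass, against 29.3% lower and 37.2% higher over all genes tested, with a median log2 change of -0.33 and a range of -1.80 to 0.97. The importin beta type receptors, which bind the pore directly, gave both the largest fall and the largest rise among the members tested. Ipo7 (chr7:110018274-110056609, GRCm38), an import receptor for ribosomal proteins, had 13.1, 11 and 17.8 FPKM in sulfasalazine libraries and 62.8, 71.2 and 28.2 in controls. Its closest relative Ipo8 (chr6:148770683-148831467) had 26, 25.9 and 29.8 FPKM in sulfasalazine libraries and 14.3, 13.5 and 12.3 in controls. Neither gene's groups overlapped, and the pair moved in opposite directions: Ipo7 by -1.80 ± 0.34 (limma adjusted p = 0.0018) and Ipo8 by 0.97 ± 0.13 (limma adjusted p = 0.00031). The ratio of Ipo7 to Ipo8 FPKM was 0.501, 0.426 and 0.596 in sulfasalazine libraries and 4.38, 5.29 and 2.28 in controls. This pair and the other gene pairs given as ratios were chosen after their values were seen, and the ratios were not tested.

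Kpnb1 (importin beta 1, chr11:97159714-97187881), the receptor that carries importin alpha with its cargo, had 152, 152 and 155 FPKM in sulfasalazine libraries and 308, 393 and 274 in controls (log2 change -1.06 ± 0.14, limma adjusted p = 0.00029). The treated libraries were nearly equal and every control was well above them. By mean FPKM, Kpnb1 was the highest member in controls, where its range overlapped that of Ran, and in sulfasalazine libraries it came after Ran and Ipo13, overlapping Ipo13. Ipo13, which works both as importin and exportin, had 155, 157 and 162 FPKM in sulfasalazine libraries and 82.2, 90.1 and 115 in controls, the third gene to rise (log2 change 0.73 ± 0.13, limma adjusted p = 0.0016). Ipo5, an importin of ribosomal proteins, fell by 0.61 (limma adjusted p = 0.00078). Tnpo2, a transportin for proline-tyrosine signals, fell by 0.51 on the log2 scale (limma adjusted p = 0.0025), with 11.7% of its exonic bases overlapping an opposite-strand gene. Its relative Tnpo1, and Tnpo3, Ipo4, Ipo9, Ipo11 and Ranbp6, did not pass, with log2 changes of -0.33 to 0.02. Ipo4 shares 55.3% of its exonic bases with the overlapping gene Gm49378 and is uncertain for that reason. Without control replicate 3, Tnpo1, Tnpo3 and Ipo11 passed, at log2 changes of -0.60, -0.42 and -0.32.

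**Figure D3:**
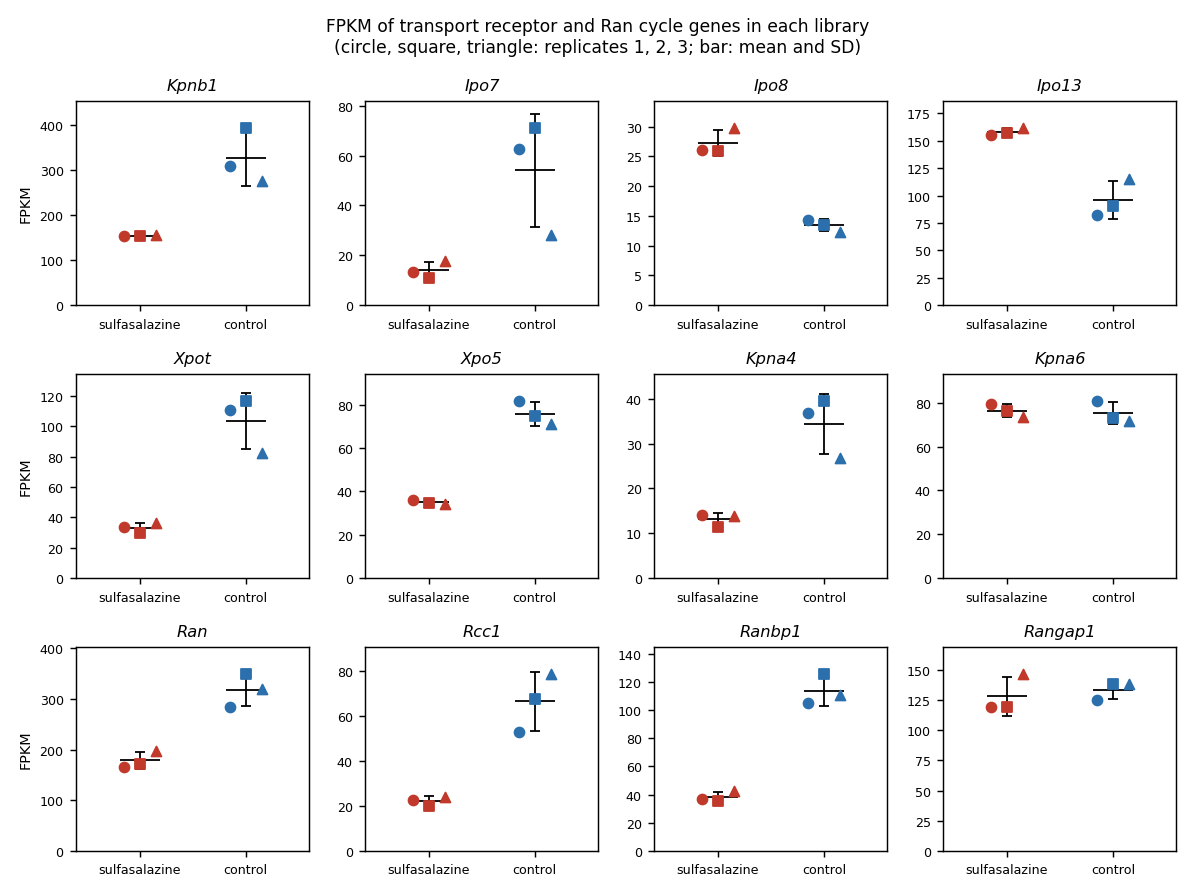
FPKM of 8 transport receptor and 4 Ran cycle genes in each library, sulfasalazine on the left and control on the right of each panel (circle, square, triangle: replicates 1, 2, 3; bar: mean and SD, n = 3; each vertical axis starts at 0). Kpnb1, Ipo7, Xpot, Xpo5, Kpna4, Ran, Rcc1 and Ranbp1 are lower in sulfasalazine libraries, Ipo8 and Ipo13 are higher, and Kpna6 and Rangap1 overlap.

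Importin alpha proteins are the adaptors that read the classical nuclear localisation signal, and 2 of the 5 tested fell (40%, against 29.3% of all genes tested). Kpna4 had 14, 11.4 and 13.9 FPKM in sulfasalazine libraries and 36.8, 39.6 and 26.8 in controls (log2 change -1.31 ± 0.18, limma adjusted p = 0.00031). Its close relative Kpna3 overlapped between groups, at 8.93, 8.13 and 14 FPKM in sulfasalazine libraries and 12.9, 12.3 and 6.53 in controls. The Kpna4 to Kpna3 ratio was 1.57, 1.4 and 0.995 in sulfasalazine libraries and 2.85, 3.22 and 4.1 in controls. Kpna2, abundant in dividing cells, had 69.4, 60.1 and 90.8 FPKM in sulfasalazine libraries and 113, 127 and 83.1 in controls. Its groups overlapped and its call was marginal (log2 change -0.55 ± 0.20, limma adjusted p = 0.038): it was lost without sulfasalazine replicate 1 or 2 or control replicate 1 or 2 (0.098 to 0.13), and 62.6% of its 50-base words also occur in other genes, mainly Gm10184. Kpna1, Kpna3 and Kpna6 did not pass. Without control replicate 3, Kpna1 had a log2 change of -0.60 (adjusted p 0.0028), against -0.29 with it, and without replicate 3 of both groups Kpna3 had -0.52 (adjusted p 0.0065), so the count of 2 depends on those libraries. Kpna6 overlapped between groups, at 79.4, 76.4 and 73.3 FPKM in sulfasalazine libraries and 81, 73.2 and 71.8 in controls. Kpna7, not tested, had 0 to 9 recovered reads per library.

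Of the 6 exportins tested, 4 fell (66.7%, against 29.3% of all genes tested). Xpot, the tRNA exporter, had 33.3, 29.4 and 36.3 FPKM in sulfasalazine libraries and 111, 117 and 82.4 in controls (log2 change -1.61 ± 0.16, limma adjusted p = 5.8e-05). Xpo5, the exporter of microRNA precursors, had 36.1, 34.6 and 34.2 FPKM in sulfasalazine libraries and 81.9, 74.7 and 70.9 in controls (log2 change -1.09 ± 0.10, limma adjusted p = 5.5e-05). Both were lower in every treated library by a wide margin, although 14.0% of the 50-base words of Xpot occur in other genes. Xpo4, an exporter of the translation factor eIF5A, had 7.58, 5.96 and 9.1 FPKM in sulfasalazine libraries and 18.8, 16.7 and 9.25 in controls (log2 change -0.86 ± 0.27, limma adjusted p = 0.021). The lowest control was nearly level with the highest treated library, and the call was lost without sulfasalazine replicate 1 or 2 or control replicate 1 or 2 (0.054 to 0.079). Xpo6, the exporter of actin with profilin, fell by 0.43 (limma adjusted p = 0.0055). Xpo1 (CRM1), the general exporter of leucine-rich signals, had 26.3, 21.7 and 34.4 FPKM in sulfasalazine libraries and 42.5, 44.1 and 30.4 in controls. Its groups overlapped and it did not pass (log2 change -0.50, limma adjusted p = 0.059), but it passed under 6 of 16 alternatives, with adjusted p of 0.00043 to 0.029. Xpo7 did not pass either, and the Xpot to Xpo7 ratio was 2.14, 1.96 and 2.31 in sulfasalazine libraries and 6.39, 6.4 and 5.77 in controls.

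The Ran cycle genes gave 3 falls (60.0%, against 29.3% of all genes tested) and 2 genes that did not pass. Ran, on chromosome 5 (chr5:129020069-129024323, GRCm38), had 166, 172 and 198 FPKM in sulfasalazine libraries and 284, 350.1 and 320.5 in controls (log2 change -0.83 ± 0.12, limma adjusted p = 0.00052). Rcc1, the chromatin-bound exchange factor that loads Ran with GTP, had 22.7, 20 and 24.1 FPKM in sulfasalazine libraries and 52.9, 67.8 and 79 in controls (log2 change -1.52 ± 0.16, limma adjusted p = 9.3e-05). Ranbp1, which helps Rangap1 to discharge Ran from receptors, had 36.5, 35.2 and 42.2 FPKM in sulfasalazine libraries and 105, 126 and 110.4 in controls (log2 change -1.56 ± 0.12, limma adjusted p = 2.1e-05). None of the 3 overlapped between groups. Ran shares 14.1% of its 50-base words with other genes, and 20.1% of the exonic bases of Ranbp1 overlap Gm49776. Rangap1, the GTPase activator, overlapped between groups: 119, 119 and 147 FPKM in sulfasalazine libraries and 125, 138 and 138 in controls (log2 change -0.06, limma adjusted p = 0.66). The Rcc1 to Rangap1 ratio was 0.191, 0.168 and 0.164 in sulfasalazine libraries and 0.425, 0.492 and 0.572 in controls. Ranbp3, a cofactor of Xpo1, was 73.6, 70.3 and 68.6 FPKM in sulfasalazine libraries and 60.1, 61 and 65.5 in controls, higher without overlap but not past the threshold (limma adjusted p = 0.12). It did pass without control replicate 3 (0.040). Outside transport, Ranbp9, a scaffold protein of a ubiquitin ligase complex, had 59.7, 64.9 and 60.1 FPKM in sulfasalazine libraries and 146, 127 and 82.7 in controls, without overlap (log2 change -0.90, limma adjusted p = 0.0040). Its relative Ranbp10 did not pass (log2 change 0.34, limma adjusted p = 0.052).

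Levels were also summed over all genes of a class in each library. The 25 pore genes summed to 802, 776 and 843 FPKM in sulfasalazine libraries and 1288, 1259.8 and 1047 in controls, a ratio of means of 0.674. The 25 receptors summed to 1026, 993 and 1078 FPKM in sulfasalazine libraries and 1492, 1606 and 1259 in controls, a ratio of 0.711. The 5 Ran cycle genes summed to 418, 417 and 481 FPKM in sulfasalazine libraries and 627, 743 and 714 in controls, a ratio of 0.631. The groups did not overlap in any of these 3 sums, which weigh the most abundant genes most, and the difference between pore and receptors was not tested.

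Control replicate 3 differed from the other 2 controls for many members. It lay below both for 35 of the 55 tested and above both for 10, against 37.8% of all genes tested lying below both. The median log2 ratio of control replicate 3 to the mean of the other 2 was -0.28 over the members, -0.30 over pore genes and -0.36 over receptors, against 0.04 over all genes tested. In 14 tested members, control replicate 3 lay within the range of the sulfasalazine libraries or past it. The share over all genes tested was not counted for this, so it cannot be called particular to the members. As a description across genes, which share libraries and are not independent replicates, longer exonic length went with a lower control replicate 3 (Spearman rho -0.39 over 10332 genes and -0.45 over the members). Median exonic length was 6313 bases over the members and 4548 over all genes tested. Exonic length and the log2 change between groups had a rho of 0.06 over the members. The part of length in these results was not tested.

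**Figure D4:**
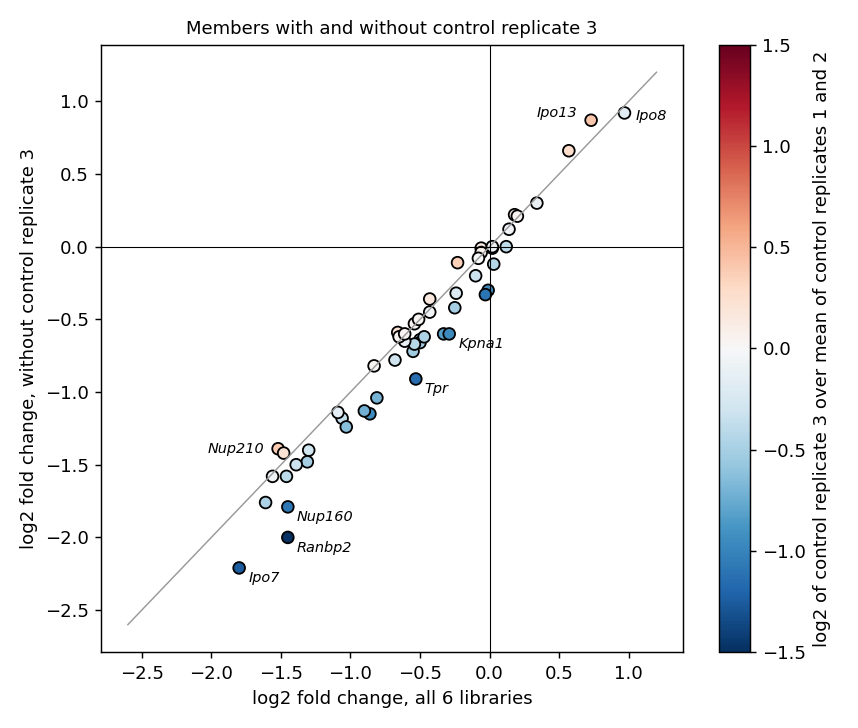
Log2 fold change of FPKM + 1, sulfasalazine over control, of the 55 tested members with all 6 libraries (horizontal) and without control replicate 3 (vertical), coloured by the log2 ratio of control replicate 3 to the mean of the other 2 controls; the line marks equal values. Most blue points, where that library was low, lie below the line, as Ipo7 (-1.80 against -2.21) and Ranbp2 (-1.45 against -2.0) do.

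Upstream sequence was read from RefSeq (GRCm38.p6), which had a window for 46 of the 58 members, and the 250 bases before each start were searched on both strands for 15 patterns. The patterns and the windows printed were chosen after matches had been seen, and a match is a description of letters. Shares of all genes are over the 27025 genes with a window, expressed here or not. Of the 58 members, 55 passed the expression filter. Expressed genes alone were not used as a background, so a higher share cannot be called particular to the members. The pattern GCATGCGC, of the kind bound by NRF1, occurred in 6 of 46 members (13.0%; Nup107, Nup50, Nup62, Ran, Ranbp1 and Xpo5), against 2.56% of 27025 genes with a window. Of these 6, 5 fell and Nup62 did not pass. Among all members tested 54.5% fell, and among all genes tested 29.3%. The longer NRF1-type palindrome that contains it was in 5 of the 6, all but Ranbp1 (10.9%), and in 0.877% of all genes. The E-box CACGTG was in 8 members (17.4%), against 6.86% of all genes, and of these 8 members 7 fell and Nup93 rose. The ETS-type pattern CCGGAAG was in 8 (17.4%, against 7.83%), of which 6 fell and 2 did not pass. The cyclic AMP response element TGACGTCA was in 3 (6.52%, against 1.77%), none of the 3 having passed. Its first bases TGACG were in 17 (37.0%, against 19.8%), of which 7 fell, 9 did not pass and 1 was not tested. CCAAT was in 20 (43.5%, against 37.5%), of which 11 fell, 1 rose, 7 did not pass and 1 was not tested. The antioxidant response core TGACNNNGC was in 5 (10.9%, against 11.5%), of which 3 fell and 2 did not pass. The other 7 had no match in members: TTTCGCGC (0.3% of all genes), TTTGGCGC (0.485%), TTGCATCA (0.918%), TGATGNAAN (3.89%), and by name an NF-kB site (0.159%), a YY1-type site (0.359%) and a palindrome with a central CGCG (0.448%). The windows here, on the strand of the gene and 5′ to 3′, show GCATGCGC in all 6 members and the E-box in Ran and in the 4 further genes with the largest falls, with the matched letters in capitals.
Ran, chr5:129019923-129019990, plus strand: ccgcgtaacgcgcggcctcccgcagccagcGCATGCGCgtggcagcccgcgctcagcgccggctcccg
Nup107, chr10:117792731-117792798, minus strand: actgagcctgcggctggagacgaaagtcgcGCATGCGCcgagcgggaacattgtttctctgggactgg
Nup50, chr15:84923233-84923300, plus strand: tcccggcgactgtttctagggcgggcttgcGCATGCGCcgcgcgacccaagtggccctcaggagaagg
Xpo5, chr17:46202698-46202765, plus strand: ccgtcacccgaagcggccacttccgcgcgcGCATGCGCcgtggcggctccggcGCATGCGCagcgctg
Nup62, chr7:44816040-44816087, plus strand: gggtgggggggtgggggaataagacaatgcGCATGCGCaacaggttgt
Ranbp1, chr16:18248796-18248863, minus strand: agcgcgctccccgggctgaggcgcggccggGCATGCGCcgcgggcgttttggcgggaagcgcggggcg
Ran, chr5:129020008-129020068, plus strand: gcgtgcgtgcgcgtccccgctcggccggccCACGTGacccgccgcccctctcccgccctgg
Xpot, chr10:121626528-121626582, minus strand: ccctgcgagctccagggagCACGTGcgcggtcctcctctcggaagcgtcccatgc
Ipo7, chr7:110018148-110018213, plus strand: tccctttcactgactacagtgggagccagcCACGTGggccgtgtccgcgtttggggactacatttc
Nup54, chr5:92435264-92435329, minus strand: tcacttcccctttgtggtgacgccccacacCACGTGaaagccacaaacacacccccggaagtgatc
Ranbp2, chr10:58446735-58446800, plus strand: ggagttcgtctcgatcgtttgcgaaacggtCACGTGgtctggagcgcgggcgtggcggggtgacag

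Ran carried both patterns, GCATGCGC starting 203 bases and the E-box 118 bases before its RefSeq start. Xpo5 carried 2 copies of GCATGCGC in its window. Ran, Ranbp1, Nup107, Nup50 and Xpo5 fell, while Nup62, with the same 8 letters, had a log2 change of -0.23 ± 0.13 and passed only with median-of-ratios scaling and with voom. The 8 members with the E-box had log2 changes of -1.80 (Ipo7), -1.61 (Xpot), -1.45 (Ranbp2), -1.39 (Nup54), -0.83 (Ran), -0.65 (Nup188), -0.51 (Tnpo2) and 0.57 (Nup93). Whether any pattern went with the direction of change was not tested.

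Other genes of nuclear transport were read from lists chosen by known function. Of 10 further receptors and pore-associated proteins tested, 4 rose (40%) and 2 fell (20.0%), near the 37.2% and 29.3% of all genes tested, with a median log2 change of 0.14. Aaas, the pore protein aladin, had 93.1, 81.3 and 91 FPKM in sulfasalazine libraries and 178, 147 and 171 in controls (log2 change -0.89, limma adjusted p = 0.00024). Rae1, a partner of Nup98 in RNA export, had 103, 114 and 107 FPKM in sulfasalazine libraries and 186, 196 and 201 in controls (log2 change -0.84, limma adjusted p = 0.00013). Rangrf, a small Ran-binding factor, had 7.03, 6.08 and 8.48 FPKM in sulfasalazine libraries and 3.14, 5.13 and 4.65 in controls (log2 change 0.64, limma adjusted p = 0.022). Cse1l, the exportin that returns importin alpha to the cytoplasm, had 31.5, 26.3 and 39.2 FPKM in sulfasalazine libraries and 62.3, 57.6 and 31 in controls. It overlapped through control replicate 3 and did not pass (limma adjusted p = 0.087).

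Of 22 mRNA export genes tested, 4 rose (18.2%) and 10 fell (45.5%), against 37.2% and 29.3% of all genes tested, with a median log2 change of -0.30. Sarnp and Thoc6, both linked to the TREX export complex, had log2 changes of -2.17 and -1.83 (limma adjusted p = 0.00029 and 7.5e-05). Thoc6 had 16.1, 15.5 and 15.4 FPKM in sulfasalazine libraries and 49.4, 50.5 and 79.2 in controls. Sarnp had 6.83, 9.72 and 13 FPKM in sulfasalazine libraries and 49, 64.1 and 32 in controls, and Ncbp2, a subunit of the cap-binding complex, had 37.6, 36.2 and 38.3 FPKM in sulfasalazine libraries and 11, 14.7 and 13.3 in controls. Neither overlapped between groups, and Ncbp2 rose (log2 change 1.46, limma adjusted p = 5.3e-05). Ncbp1, the other subunit of that complex, fell (log2 change -0.94, limma adjusted p = 0.00011). Of 19 genes of the nuclear envelope and lamina tested, 7 rose (36.8%) and 8 fell (42.1%), against 37.2% and 29.3% of all genes tested, with a median log2 change of -0.14. Tor1aip2, an activator of torsin, had 47.6, 45 and 46.9 FPKM in sulfasalazine libraries and 175, 143 and 105 in controls (log2 change -1.55, limma adjusted p = 0.00013). Banf1, which binds DNA to the lamina, had 131, 133 and 118 FPKM in sulfasalazine libraries and 275, 321 and 350.0 in controls (log2 change -1.30, limma adjusted p = 4.9e-05), and every control was above 2 times the treated libraries. The LEM-domain protein Lemd3 had 4.11, 3.53 and 4.73 FPKM in sulfasalazine libraries and 15.1, 12.1 and 8.45 in controls (log2 change -1.30, limma adjusted p = 0.00099). Among the 7 envelope and lamina genes that rose, the largest log2 changes were 0.94 (Tor1aip1), 0.91 (Syne2) and 0.88 (Lmnb2). Their limma adjusted p were 0.0003, 0.011 and 0.0025. Of 16 SUMO cycle genes tested, 5 rose (31.2%) and 6 fell (37.5%), against 37.2% and 29.3% of all genes tested, with a median log2 change of -0.19. Pias3, a SUMO ligase, had 29.3, 27.5 and 30.5 FPKM in sulfasalazine libraries and 8.45, 8.5 and 10.5 in controls (log2 change 1.58, limma adjusted p = 3.9e-05), while the protease Senp6 had 20.1, 15.3 and 23.3 FPKM in sulfasalazine libraries and 53.6, 53.3 and 31.6 in controls (log2 change -1.18, limma adjusted p = 0.0025). Sumo2 rose by 1.46 on the log2 scale (limma adjusted p = 0.043) with overlapping groups, at 91.4, 41.9 and 44.2 FPKM in sulfasalazine libraries and 17.2, 8.78 and 47.2 in controls.

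In the authors' deposited table, which labels genes up or down, 16 of the 58 members were labelled down, 1 up and 41 neither. Of all genes in the authors' deposited table, 16.1% were labelled down and 18.8% up. The member labelled up in the authors' deposited table was Kpna7 (log2 fold change 3.39), which did not reach the expression filter here. Ipo8, Ipo13 and Nup93, which rose in the limma fit, were labelled neither. Their log2 fold changes in the authors' deposited table were 0.92, 0.63 and 0.49, with the authors' adjusted p of 1.5e-06, 0.0016 and 0.021. Every member labelled down had a log2 fold change of -1.04 (Ranbp9) or lower. Nup153, at -0.96 with the authors' adjusted p of 1.5e-05, was labelled neither. The labels thus also went with the size of the change, unlike the calls here, so counts of labels and of calls cannot be compared directly.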

How the data were processed

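RNA of 6 MC3T3-E1 libraries was analysed, 3 given sulfasalazine and 3 untreated. Per the labels' protocols, the RNA kit is made for plants, the rRNA depletion kit for bacteria, and reads were paired ends from an Illumina NovaSeq. The submitters' processing notes name HTSeq 0.13.5, HISAT2 2.2.1, fastp 0.23.0, the package edgeR and build mm39, in no stated order. The authors deposited FPKM values per library, per the file headers, beside a library-size-adjusted signal, log2 fold changes and p-values of their own (deposited table of 14003 genes). Of these, 13982 matched GENCODE M21 and 13849 had its start and end, all 58 members included, so coordinates are given as GRCm38.

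FPKM values in each library were whole multiples of a step, and whole reads were recovered for 100.0% of nonzero values (tolerance 0.00001), from which depth was taken: 21579133, 19852472 and 19247898 reads in sulfasalazine libraries and 19613109, 20828706 and 15980942 in controls. Tested members had 118 to 20440 reads in a library. No 2 libraries agreed within sampling noise. The test was limma 3.58.1 in R 4.3.3 (lmFit, eBayes with an intensity trend, two-sided) on log2(FPKM + 1) of genes at 1 FPKM or more in 3 or more libraries, with Benjamini-Hochberg adjustment over all 10338. Calls needed adjusted p below 0.05. limma voom on the recovered reads, with 100.0% of nonzero values whole, called 3479 genes higher and 3531 lower and was an alternative. In 5 simulations of sulfasalazine over control, drawn with a dispersion set to 0.02 and 200 genes altered among 10233 to 10242, limma recovered 97.2% of genes changed by 1 and 100% of those changed by 2 on the log2 scale and called 0.11% of unchanged genes. In the data 66.5% of genes tested were called, far above the share altered in the simulations, and the dispersion was assumed. Some members also spread more among controls (Ranbp2 41.8 ± 21.9 and Ipo7 54.1 ± 22.8 FPKM, SD). The simulated rates therefore cannot be carried over to the genes of these data. Tables were joined with pandas 2.3.3 and numpy 2.4.6 under Python 3.11.15.

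The members and the lists of other genes were chosen with earlier results of these data known, and so were the roles. Values in every library are given for named key members and for up to 3 called members per role or list with the largest absolute change. Further members are named from the same fit, as every member may be, and so are Tor1aip1, Syne2, Lmnb2 and Ncbp1 of the lists. Alternatives were another pseudocount, filter, scaling or threshold, voom, a replicate block, eBayes without the trend, and libraries left out.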

Additional observations from a re-analysis of the deposited data

How the results depend on the processing

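Over 16 alternatives no tested member changed direction past the threshold; the 3 rises and 23 of the 30 falls held in all of them. Kpna2 and Nup205 lost their calls in 7 alternatives each, Xpo4 and Nup155 in 5, Ndc1 in 4, Ranbp2 in 3 and Nup50 at a threshold of 0.01 only. Calls were gained by Xpo1 in 6 alternatives, Ranbp10 and Ipo11 in 5, Nup43 in 3, Nup62, Kpna1, Tpr, Tnpo1, Tnpo3 and Ranbp3 in 2, and Kpna3 and Ranbp6 in 1. Deviations from the group means correlated at 0.04, -0.19 and -0.17 between same-numbered libraries, and at -0.14 to 0.21 between differently numbered ones. With only 3 libraries per group, these correlations cannot decide whether samples were handled in pairs. With a replicate block, 3649 genes were higher and 2771 lower, and 15 pore genes and 9 receptors fell. Kpna2 and Nup205 then had limma adjusted p of 0.075 and 0.085. Without replicate 3 of both groups, 17 receptors fell in place of 10, and the median log2 change was -0.71 for pore genes and -0.52 for receptors. Calls also grew over all genes tested in that setting: 3803 fell in place of 3032, and 4238 rose in place of 3846. Ran cycle genes gave 1 rise without control replicate 3 and 1 without replicate 3 of both groups (Ranbp3), where limma gave 0 in the fit of all 6 libraries, 0 at unadjusted p below 0.05 and 0 by voom. Leaving out each library in turn gave 3387 to 4206 genes higher, 2454 to 3527 lower, 12 to 17 pore genes lower, 8 to 15 receptors lower, and medians of -0.62 to -0.52 for pore genes and -0.50 to -0.21 for receptors. Median-of-ratios scaling, quantile normalization and voom moved the median of all genes by -0.12, -0.11 and -0.12. With median-of-ratios scaling, Nup214, Kpna6 and Ipo9 were at -0.10, -0.10 and -0.11, against 0.03, 0.02 and 0.02 in the fit reported; they were called in neither. The cause of these changes was not tested. Each group has only 3 libraries. Control replicate 3 differed from controls 1 and 2 by a chi-square of 93.21 and 73.83 per degree of freedom, beyond counting error.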
